A study of Mus musculus with 53 samples.

Results

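The 7 genes described here are Trmt9b, Bmp5, Chn2, Asic2, Gpr153, Gsdmd and Zranb3, taken by name from 55573 genes in the bulk tables and 57010 in the single-cell tables of mouse cerebellum. They were brought together because their response to deletion of Insm1 had looked different from their response to deletion of Tead1 and Tead2. Gpr153, Gsdmd and Zranb3 had been picked out at postnatal day 2 (P2), where they ranked 4, 9 and 6 of 20837 genes by the p of the difference between the deletions. For Trmt9b, Bmp5, Chn2 and Asic2 the source of the choice is not recorded. They ranked 2, 1, 6 and 23 of 15806 genes by the same measure in granule lineage cells at postnatal day 7 (P7), and were treated as chosen there. Values at the age at which a gene was chosen are therefore a description. Any adjusted p printed for a gene at that age describes the fit and is not a test. Tests are those at the other age, which used other animals.

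Mutants carried Atoh1Cre with homozygous floxed Insm1 (Atoh1Cre; Insm1fl/fl) or with homozygous floxed Tead1 and Tead2 (Atoh1Cre;Tead1fl/fl;Tead2fl/fl). Controls carried the same floxed alleles without Cre, so that each line had its own controls and the Cre allele was present in mutants only. Atoh1Cre acts in cells of the rhombic lip lineage, chiefly cerebellar granule cells, and the other cells of the tissue keep both genes. At P2, total RNA of single cerebella was sequenced from 8 pups of the Insm1 line (4 per genotype) and 7 pups of the Tead1/2 line (3 controls and 4 mutants). At P7, dissociated cells of 1 cerebellum per library were profiled by split-pool single-cell RNA-seq from 2 controls and 3 mutants of each line. Library 1 of each P7 group held all lobules, and the others lacked lobules IX and X. By Xist and Ddx3y counts, all Insm1 controls at P2 were female, while Insm1 mutants 3 and 4 were male. At P7 both Tead1/2 controls were female, while Tead1/2 mutants 1 and 2 were male. Sex was thus not balanced between mutants and controls in these comparisons. The P2 libraries of each line formed a batch of their own according to the labels, so that line and batch cannot be told apart in a level, whereas each mutant was compared with controls of its own batch.

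The 7 genes belong to unrelated pathways. Bmp5 is a secreted ligand of the bone morphogenetic protein family, which acts through serine-threonine kinase receptors and Smad proteins and is known to restrain proliferation of granule progenitors. Gpr153 is an orphan G protein-coupled receptor, and Asic2 is a subunit of the proton-gated sodium channels that open when the space around a neuron turns acid. Chn2 encodes beta-chimaerin, which switches off the small GTPase Rac downstream of guidance receptors such as Epha4, and the gene is known for its part in granule cell positioning. Trmt9b is related to the enzymes that methylate wobble uridines of tRNA. Gsdmd is gasdermin D, the pore-forming protein of pyroptotic cell death, and Zranb3 is a DNA translocase that remodels stalled replication forks. Insm1 is a zinc finger repressor of neural progenitors, and Tead1 and Tead2 are the DNA-binding partners of Yap and Taz.

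In RefSeq coordinates of GRCm38.p6, Trmt9b lies at chr8:36457485-36514584, Bmp5 at chr9:75775365-75900316 and Chn2 at chr6:54039932-54301812. Asic2 lies at chr11:80880163-81968396, Gpr153 at chr4:152274106-152285342, Gsdmd at chr15:75862144-75867408 and Zranb3 at chr1:127954179-128103053. Annotated genes overlap Chn2 (4 genes), Asic2 (9), Zranb3 (3) and Gpr153 (1, Hes3), and whether the counting used strand is not stated, so reads of these 4 genes and of their overlapping neighbours may not be separable. Promoter windows from RefSeq (250 bases before an annotated start) were at hand for 5 of the 7 genes, 11 windows in all. The 2 sequences below belong to Bmp5 and Chn2, the genes whose granule lineage levels were farthest apart between the mutants. The Bmp5 window covers chr9:75775115-75775364 and the Chn2 window chr6:54264608-54264857 (GRCm38.p6, plus strand), the latter before an internal start of the gene; capitals mark the E-box CAGCTG.
Bmp5: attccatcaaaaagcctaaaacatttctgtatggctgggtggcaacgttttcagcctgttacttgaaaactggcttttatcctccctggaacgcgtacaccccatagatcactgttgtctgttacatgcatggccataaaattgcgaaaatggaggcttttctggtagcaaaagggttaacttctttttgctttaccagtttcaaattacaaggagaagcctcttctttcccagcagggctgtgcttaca
Chn2: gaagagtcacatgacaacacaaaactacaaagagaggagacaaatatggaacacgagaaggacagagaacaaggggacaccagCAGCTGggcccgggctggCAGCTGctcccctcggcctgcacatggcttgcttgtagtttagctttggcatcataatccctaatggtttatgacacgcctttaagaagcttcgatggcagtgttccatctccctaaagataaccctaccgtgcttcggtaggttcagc
The hexamer GGAATG, the core of the TEAD motif, occurred on neither strand in any of the 11 windows, while 12.6% of 32851 windows of the same length held it. The E-box CAGCTG, which reads the same on both strands, occurred in 3 of 11 windows against 13.0% of all windows; these were the printed Chn2 window, with 2 matches, and 1 further window each of Chn2 and Gpr153. These matches are a description of the letters only.

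The P2 libraries held 28066726 to 64518819 expected counts, and the P7 libraries held 17448867 to 48644019 molecules in 2408 to 5735 kept cells. Insm1 at P2 and Tead2 at P7 followed the labels. Insm1 mutants at P2 had 8.45 to 16.1 CPM (counts scaled to library size) of Insm1 against 30.8 to 72.0 in controls, and Tead2 in P7 granule lineage cells fell by 1.39 on the log2 scale in Tead1/2 mutants (edgeR adjusted p = 6.44e-07). At P2 the changes of Tead2 (log2 change -0.22, adjusted p = 0.314) and Tead1 (-0.09, adjusted p = 0.746) did not pass. The Tead1 count rose at P7 in the granule lineage of Tead1/2 mutants, from 602 and 605 CPM to 1312, 1455 and 1317 CPM (1.17, edgeR adjusted p = 1.69e-06), and lay below controls in the other named cells (-0.33, adjusted p = 0.0548). Gene-level counts do not isolate the deleted exons, so that of Tead1 does not check the labels. Clusters named as skeletal muscle made up 11.8% to 12.9% of kept cells in Insm1 mutants, 19.3% to 25.6% in Tead1/2 mutants and at most 0.0766% in controls. Granule lineage cells were 76.0% to 81.5% of control cells, 39.7% to 48.7% of Insm1 mutant cells and 32.9% to 42.5% of Tead1/2 mutant cells. At P2 the summed level of 20 muscle markers was 46.7 CPM in Tead1/2 mutant 4, just below the 47.9 to 53.2 CPM of its controls, while the highest Tead1/2 mutant reached 278 CPM, so the Tead1/2 changes at P2 are given with and without this library. In bulk RNA, fewer cells of a type and less RNA per cell cannot be told apart.

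At P7 the granule lineage (clusters named as granule progenitors or granule neurons) showed a different pattern for each of the 4 genes chosen there. Chn2 and Trmt9b were higher in both mutants, Chn2 more so after Insm1 deletion and Trmt9b more so after Tead1/2 deletion. Bmp5 was higher in Insm1 mutants and much lower in Tead1/2 mutants, and Asic2 was higher in Tead1/2 mutants, while its Insm1 groups overlapped. All levels in the next 4 paragraphs are CPM of counts summed per library, scaled by edgeR's TMM factors, and all differences are log2 changes.

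Bmp5, the ligand, was measured at 51.1 and 65.7 CPM in the granule lineage of Insm1 controls and at 74.4, 97.3 and 84.0 CPM in Insm1 mutants. In Tead1/2 controls it stood at 55.1 and 58.0 CPM and in Tead1/2 mutants at 15.3, 16.7 and 13.8 CPM. The control levels of the lines overlapped, all Insm1 mutants lay above their controls and all Tead1/2 mutants lay below theirs. The log2 change was 0.55 (SE 0.128) for Insm1 and -1.89 (SE 0.133) for Tead1/2, a difference of 2.44 (SE 0.186). Without Insm1 control 1 the Insm1 change was 0.37. The summed level of all kept cells, which include muscle and unnamed cells, gave 0.27 (SE 0.124) and -1.22 (SE 0.123).

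Asic2, the channel subunit, read 22.6 and 18.1 CPM in Insm1 controls and 21.6, 17.1 and 21.6 CPM in Insm1 mutants, groups that overlapped (log2 change -0.03, SE 0.143). Tead1/2 controls had 24.4 and 27.5 CPM and Tead1/2 mutants 61.6, 78.4 and 71.5 CPM, with every mutant above every control (1.44, SE 0.137). The difference between the deletions was -1.48 (SE 0.195) in the granule lineage and -0.81 (SE 0.143) in all kept cells. Over 16 alternatives the Insm1 change in the granule lineage ran from -0.91 to 0.14. The granule lineage difference ran from -2.67 to -1.30 over 16 alternatives. The all-cell value turned on how doublets, barcodes that hold more than 1 cell, were removed. It was -0.79 when doublets were marked by the caller's own threshold in each library, -0.24 when only the highest 5% of doublet scores were removed and -0.25 when no doublet was removed.

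Chn2, the Rac regulator, stood at 29.9 and 30.01 CPM in Insm1 controls and at 431, 543 and 407 CPM in Insm1 mutants. Tead1/2 controls had 37.8 and 45.1 CPM and Tead1/2 mutants 115, 146 and 94.8 CPM. Both mutant groups lay wholly above their controls, and every Insm1 mutant lay above every Tead1/2 mutant. The log2 change was 3.94 (SE 0.192) for Insm1 and 1.52 (SE 0.172) for Tead1/2, a difference of 2.42 (SE 0.237). In all kept cells the difference was 2.23 (SE 0.122), and 1.65 with doublets kept. Controls of the lines did not overlap in the granule lineage or in all kept cells. In all kept cells the control means were 47.7 (Insm1) and 83.8 CPM (Tead1/2), and the mutant means 392 and 146 CPM. The differences for Chn2 thus hold the gap between the controls as well as that between the mutants.

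Trmt9b, the tRNA methyltransferase relative, read 18.8 and 19.9 CPM in Insm1 controls and 44.9, 43.8 and 47.2 CPM in Insm1 mutants. Tead1/2 controls had 6.47 and 5.83 CPM and Tead1/2 mutants 51.6, 68.0 and 58.8 CPM. Mutants lay above their controls in both lines, but the controls of the lines also stood apart, at means of 19.3 and 6.15 CPM, a ratio of 3.14, while the mutant means were 45.3 and 59.4 CPM. The log2 changes were 1.23 (SE 0.115) and 3.27 (SE 0.129), a difference of -2.04 (SE 0.167) that holds the gap between the controls as well as that between the mutants. In all kept cells, Trmt9b means were 33.9 and 35.7 CPM in the mutants and 19.0 and 7.43 CPM in the controls.

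**Figure D1:**
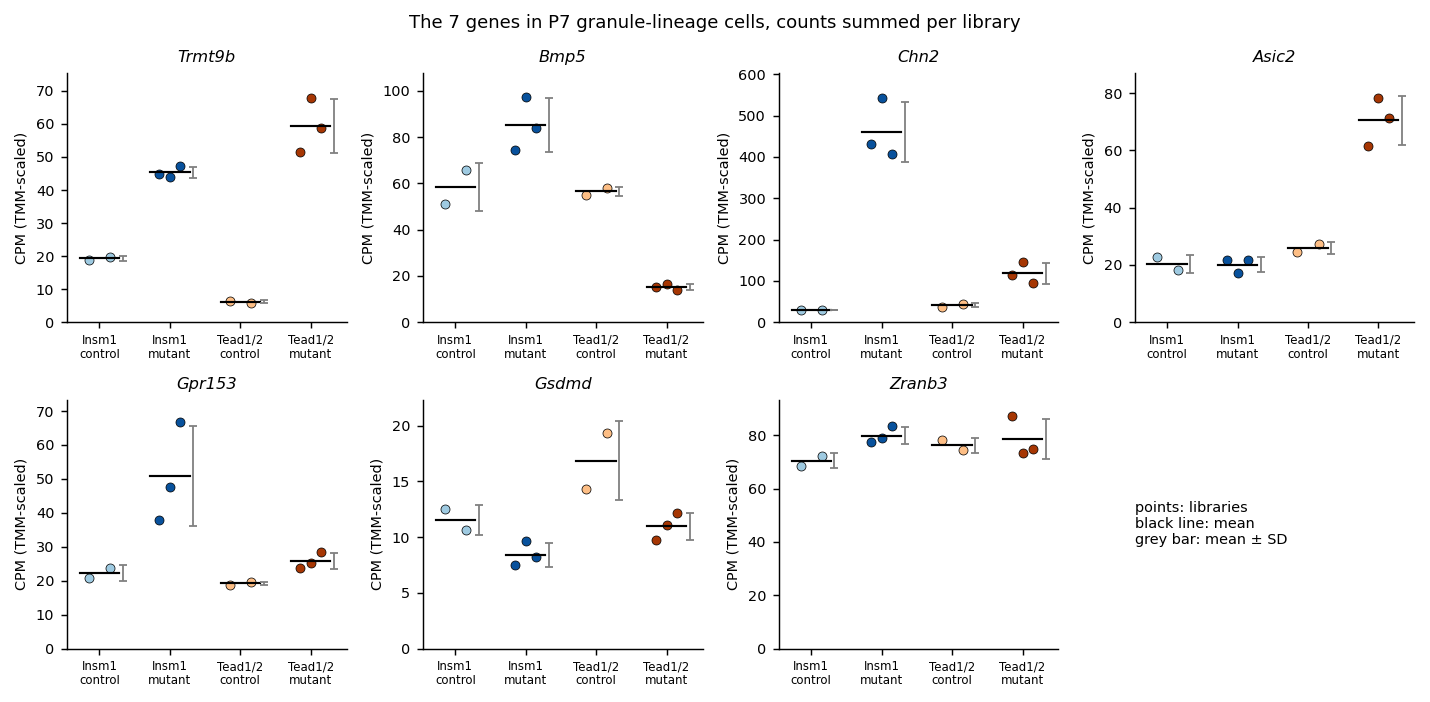
Levels of the 7 genes in the P7 granule lineage, in TMM-scaled CPM on a linear axis that starts at 0, with 1 point per library (2 controls and 3 mutants per line), a black line at the group mean and a grey bar of ± 1 SD. Bmp5 mutants sit between 74.4 and 97.3 CPM after Insm1 deletion and between 13.8 and 16.7 CPM after Tead1/2 deletion, and Chn2 reaches 543 CPM in an Insm1 mutant.

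The 3 genes chosen at P2 could be tested at P7, in other animals. None of them passed for the difference between the deletions in the granule lineage, though Gpr153 did with no filter on low counts. In all kept cells Gpr153 passed with the opposite sign to P2. Age, assay and cell composition differed between these values, so nothing is drawn from the signs. Counts over all 7 genes are given here for completeness, since 4 of them were chosen on this contrast. In the granule lineage 4 of 7 genes passed an edgeR adjusted p of 0.05 for the difference, against 0.791% of all genes tested, and in all kept cells 5 of 7 against 3.69%. Granule lineage levels of mutants and controls did not overlap for 6 of 7 genes in either line, against 48.7% of all genes for Insm1 and 43.8% for Tead1/2. For the single deletions, 4 of 7 passed for Insm1 (20.2% of all genes) and 5 of 7 for Tead1/2 (17.9%) in the granule lineage, and 6 of 7 (29.3%) and 7 of 7 (45.2%) in all kept cells.
Asic2 entered the all-cell counts by a narrow margin. Its Insm1 change of 0.30 (edgeR adjusted p = 0.0483) lost the call in 10 of 19 alternatives, among them those without any 1 library of the Insm1 line, with 0.25 to 0.33 and adjusted p of 0.0528 to 0.19. Its difference of -0.81 (adjusted p = 0.012) lost the call in 5 of 19, namely without Insm1 control 1 or 2 (-0.79 and -0.82, adjusted p 0.0576 and 0.0547) and with doublets treated in each of the 3 other ways given above (adjusted p 0.0697 to 0.618).

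Gpr153, the orphan receptor, stood at 20.7 and 23.8 CPM in the granule lineage of Insm1 controls and at 37.9, 47.8 and 66.8 CPM in Insm1 mutants. Tead1/2 controls had 18.8 and 19.6 CPM and Tead1/2 mutants 23.8, 25.4 and 28.4 CPM, so that mutants lay above controls in both lines. It rose by 1.18 (SE 0.188) on the log2 scale after Insm1 deletion (edgeR adjusted p = 0.000745), and the Tead1/2 change of 0.43 (SE 0.186) did not pass (adjusted p = 0.147). The difference of 0.75 had a 95% interval of 0.18 to 1.32 and an edgeR adjusted p of 0.333. With no filter on low counts both passed, the Tead1/2 change at 0.42 (adjusted p = 0.00895) and the difference at 0.74 (adjusted p = 0.00186), and the Tead1/2 change also passed without Insm1 mutant 3 (0.43, adjusted p = 0.0357).
In all kept cells, Gpr153 read 18.8 and 20.1 CPM in Insm1 controls, 22.2, 25.2 and 29.9 CPM in Insm1 mutants, 15.5 and 16.4 CPM in Tead1/2 controls and 11.9, 11.8 and 13.6 CPM in Tead1/2 mutants. Insm1 mutants lay above and Tead1/2 mutants below their controls, with log2 changes of 0.41 (edgeR adjusted p = 0.0287) and -0.36 (adjusted p = 0.0335). The difference of 0.76 (95% interval 0.38 to 1.14, edgeR adjusted p = 0.0371) no longer passed with a term for sex (0.63, adjusted p = 0.113) or without any 1 of Insm1 controls 1 and 2, Tead1/2 controls 1 and 2, Insm1 mutant 2 and Tead1/2 mutant 2 (adjusted p 0.0651 to 0.137). The single changes of Gpr153 each lost the call in 5 of 19 alternatives. These included the fits without either control of their line, without Insm1 mutants 2 or 3 (Insm1) and without Tead1/2 mutants 1 or 2 (Tead1/2). Values in those fits were 0.30 to 0.45 and -0.40 to -0.31. Over all 19 alternatives the values ran from 0.30 to 0.50 and from -0.54 to -0.25.

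Gsdmd, the gasdermin, read 12.5 and 10.6 CPM in the granule lineage of Insm1 controls, 7.50, 9.62 and 8.19 CPM in Insm1 mutants, 14.3 and 19.4 CPM in Tead1/2 controls and 9.73, 11.1 and 12.1 CPM in Tead1/2 mutants. Mutants lay below controls in both lines. The log2 change was -0.46 (SE 0.17, edgeR adjusted p = 0.0795) for Insm1, which passed with no filter on low counts (-0.48, adjusted p = 0.0281), and -0.61 (SE 0.156, adjusted p = 0.0162) for Tead1/2, and the latter did not pass without Tead1/2 control 2 (-0.39, adjusted p = 0.23) or with a term for sex (-0.46, adjusted p = 0.0876). Their difference was 0.15, with a 95% interval of -0.36 to 0.66 and an edgeR adjusted p of 0.915. In all kept cells Gsdmd fell in both mutants, from 11.2 and 8.77 to 5.03, 5.69 and 5.22 CPM after Insm1 deletion and from 11.9 and 16.2 to 5.11, 6.19 and 6.20 CPM after Tead1/2 deletion. These falls were -0.92 (SE 0.165, edgeR adjusted p = 0.00174) and -1.26 (SE 0.155, adjusted p = 6.3e-05), and the difference was 0.34 (95% interval -0.16 to 0.85, adjusted p = 0.48).

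Zranb3, the fork remodeller, read 68.4 and 72.4 CPM in the granule lineage of Insm1 controls, 77.5, 78.9 and 83.4 CPM in Insm1 mutants, 78.2 and 74.3 CPM in Tead1/2 controls and 87.2, 73.5 and 74.8 CPM in Tead1/2 mutants. The Insm1 mutants lay slightly above their controls, and the Tead1/2 groups overlapped. Neither change passed, at 0.18 (SE 0.0839, edgeR adjusted p = 0.159) and 0.04 (SE 0.0825, adjusted p = 0.808), and the difference was 0.14 (95% interval -0.11 to 0.40, adjusted p = 0.801). With coarser clusters (Leiden resolution 0.5) both changes passed, at 0.41 (adjusted p = 0.00332) and 0.27 (adjusted p = 0.0327). At that resolution a cluster of 4154 cells, 10 of them from controls, stayed unnamed. It shared top genes with cluster 22, named as granule neurons in the main clustering, and with the unnamed cluster 20. The granule lineage thus did not hold the same mutant cells in the 2 clusterings. In all kept cells Zranb3 fell in both mutants, from 65.5 and 69.2 to 56.7, 53.5 and 52.6 CPM after Insm1 deletion and from 70.6 and 68.2 to 54.7, 44.5 and 47.2 CPM after Tead1/2 deletion. The falls were -0.31 (SE 0.085, edgeR adjusted p = 0.0179) and -0.51 (SE 0.0838, adjusted p = 0.000513), with a difference of 0.20 (95% interval -0.07 to 0.46, adjusted p = 0.431). The Insm1 fall missed the threshold without Insm1 control 1 or 2 or Insm1 mutant 2 or 3 (-0.35 to -0.27, adjusted p 0.0548 to 0.121). The share of granule progenitors, in which Zranb3 read 107 to 126 CPM without TMM factors, moved with this fall: 39.6% to 41.0% of cells in Insm1 controls and 24.8% to 27.6% in Insm1 mutants, 44.5% to 44.9% in Tead1/2 controls and 14.96% to 23.3% in Tead1/2 mutants. Its part in the all-cell result was not tested, and within the granule lineage Zranb3 was not lower in either mutant.

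At P2 the 4 genes chosen at P7 could be tested, and none of them passed for the difference between the deletions. The means of Chn2, Trmt9b and Bmp5 were higher in the mutants of both lines, and that of Asic2 was lower. Mutants and controls overlapped in both lines for Trmt9b, Bmp5 and Asic2, and in the Tead1/2 line for Chn2. Of the 7 genes, 0 passed an edgeR adjusted p of 0.05 for the difference (0% of all genes tested), 0 for the Insm1 deletion (0.689%) and 0 for the Tead1/2 deletion (0%). At an unadjusted p under 0.05 the 3 that passed for the difference (6.89% of all genes) were Gpr153, Gsdmd and Zranb3, the genes chosen on this contrast, and the same 3 passed DESeq2's adjusted p; the choice fixed both counts, and of the other 4 genes 0 passed either. For the single deletions at this unadjusted p, 3 of 7 passed for Insm1, against 1763 of 19582 genes, and 3 of 7 for Tead1/2, against 4052 of 20247 genes. Mutants and controls did not overlap for 2 of 7 genes in the Insm1 line (6.23% of all genes) and for 3 of 7 in the Tead1/2 line (16.4%). For Tead1/2 both counts of 3 were again Gpr153, Gsdmd and Zranb3, whose choice used these samples. Both Insm1 counts held Gsdmd, whose choice used the Insm1 samples as well. The other genes in them were Chn2 in both and Trmt9b at the unadjusted p.

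Bmp5 at P2 read 8.74, 7.41, 10.2 and 9.89 CPM in Insm1 controls, 12.9, 10.2, 7.93 and 9.78 CPM in Insm1 mutants, 10.3, 9.79 and 7.07 CPM in Tead1/2 controls and 7.53, 8.32, 10.9 and 12.2 CPM in Tead1/2 mutants. All 4 groups overlapped. The change was 0.18 (SE 0.152, edgeR adjusted p = 0.749) for Insm1 and 0.08 (SE 0.177, adjusted p = 0.836) for Tead1/2, or -0.039 without Tead1/2 mutant 4 (adjusted p = 0.922). The difference of 0.09 had a 95% interval of -0.46 to 0.63 (edgeR adjusted p = 0.975).
Asic2 at P2 read 28.1, 22.8, 21.6 and 24.3 CPM in Insm1 controls, 18.9, 23.8, 22.3 and 24.0 CPM in Insm1 mutants, 19.4, 21.9 and 21.1 CPM in Tead1/2 controls and 17.1, 18.9, 20.2 and 21.1 CPM in Tead1/2 mutants. Mutants and controls overlapped in both lines, with changes of -0.12 (SE 0.102, edgeR adjusted p = 0.754) and -0.11 (SE 0.0778, adjusted p = 0.449), the latter -0.15 without Tead1/2 mutant 4 (adjusted p = 0.305). The difference was -0.01 (95% interval -0.31 to 0.28, edgeR adjusted p = 0.993).

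Chn2 at P2 read 29.2, 28.2, 29.5 and 31.4 CPM in Insm1 controls and 36.9, 34.4, 37.4 and 35.6 CPM in Insm1 mutants. In the other line the controls had 24.4, 27.7 and 31.5 CPM and the mutants 34.9, 38.7, 34.7 and 26.3 CPM. Every Insm1 mutant lay above every Insm1 control, and so did Tead1/2 mutants 1 to 3, while mutant 4, whose muscle markers were at the level of its controls, lay among the controls. The change was 0.29 (SE 0.0606) for Insm1, with an edgeR adjusted p of 0.0738 that became 0.00324 with DESeq2 and 0.0427 with upper-quartile scaling. For Tead1/2 it was 0.28 (SE 0.125, edgeR adjusted p = 0.251), and 0.37 without mutant 4 (adjusted p = 0.0591). It passed in 1 of 13 alternatives. The difference of 0.01 had a 95% interval of -0.29 to 0.32 (edgeR adjusted p = 0.994).
Trmt9b at P2 read 5.31, 7.16, 7.79 and 7.07 CPM in Insm1 controls, 7.16, 7.72, 9.86 and 9.65 CPM in Insm1 mutants, 5.05, 5.51 and 6.18 CPM in Tead1/2 controls and 7.28, 8.88, 6.96 and 5.04 CPM in Tead1/2 mutants. The Insm1 groups overlapped, and Tead1/2 mutants 1 to 3 lay above their controls while mutant 4 was at the level of the lowest control. Neither change passed, at 0.33 (SE 0.148, edgeR adjusted p = 0.544) and 0.35 (SE 0.169, adjusted p = 0.28), or 0.48 for Tead1/2 without mutant 4 (adjusted p = 0.0789). The difference was -0.02 (95% interval -0.52 to 0.48, edgeR adjusted p = 0.993). The controls of the lines, at means of 6.83 and 5.58 CPM, overlapped at this age.

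**Figure D2:**
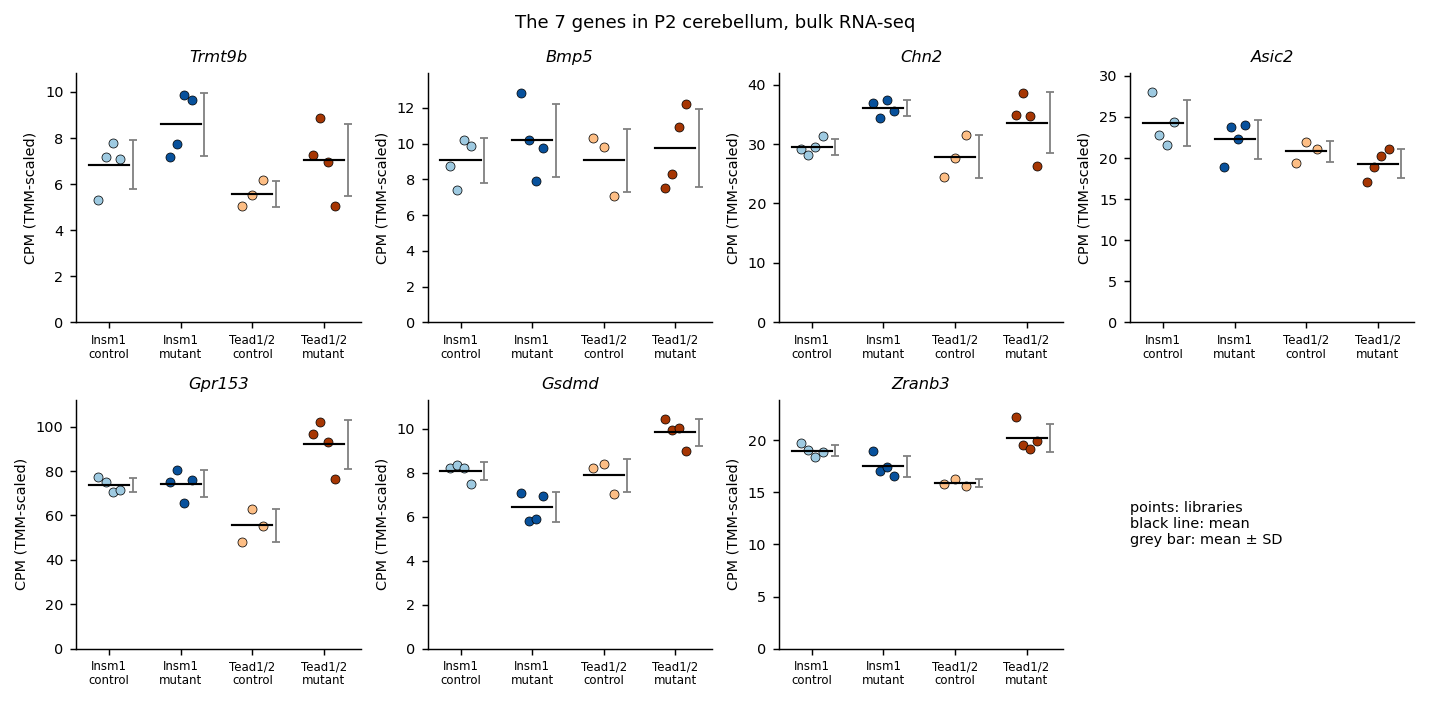
Levels of the 7 genes in bulk P2 cerebellum, in TMM-scaled CPM on a linear axis that starts at 0, with 1 point per library, a black line at the group mean and a grey bar of ± 1 SD. Gpr153, Gsdmd and Zranb3 mutants of the Tead1/2 line lie above their controls, and Trmt9b, Bmp5 and Asic2 groups overlap in both lines.

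The P2 values of the 3 genes chosen there are a description. Gpr153 read 77.2, 75.3, 70.8 and 71.7 CPM in Insm1 controls and 75.3, 80.5, 65.7 and 75.9 CPM in Insm1 mutants, which overlapped. In the other line the controls had 48.2, 63.0 and 55.4 CPM and the mutants 96.6, 102, 92.9 and 76.4 CPM, with every mutant above every control. Changes were 0.02 (SE 0.0712) and 0.73 (SE 0.109), the latter 0.81 without mutant 4, and the difference was -0.72 (SE 0.137). The Tead1/2 controls had lower Gpr153 than any Insm1 control, and the Tead1/2 mutants reached or passed the Insm1 levels.
Gsdmd at P2 read 8.23, 8.37, 8.21 and 7.49 CPM in Insm1 controls, 7.09, 5.79, 5.89 and 6.95 CPM in Insm1 mutants, 8.23, 8.41 and 7.03 CPM in Tead1/2 controls and 10.4, 9.94, 10.04 and 8.998 CPM in Tead1/2 mutants. Insm1 mutants lay wholly below and Tead1/2 mutants wholly above their controls (-0.32, SE 0.1, and 0.32, SE 0.0921), the latter 0.35 without mutant 4, and the controls of the lines overlapped.
Zranb3 at P2 read 19.8, 19.1, 18.4 and 18.8 CPM in Insm1 controls, 19.0, 17.0, 17.5 and 16.6 CPM in Insm1 mutants, 15.8, 16.3 and 15.6 CPM in Tead1/2 controls and 22.2, 19.6, 19.1 and 19.97 CPM in Tead1/2 mutants. The Insm1 groups overlapped, and all Tead1/2 mutants lay above their controls, which in turn lay below all Insm1 controls. Its changes were -0.11 (SE 0.0685) and 0.34 (SE 0.0678), the latter 0.35 without mutant 4. The differences between the deletions at P2 were -0.65 (SE 0.131) for Gsdmd and -0.47 (SE 0.0925) for Zranb3. These are the values on which the 3 genes were chosen, which favours large differences at P2, so no contrast with P7 is drawn from them. Age, assay and cell composition also differed between the experiments, and their parts cannot be told apart.

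**Figure D3:**
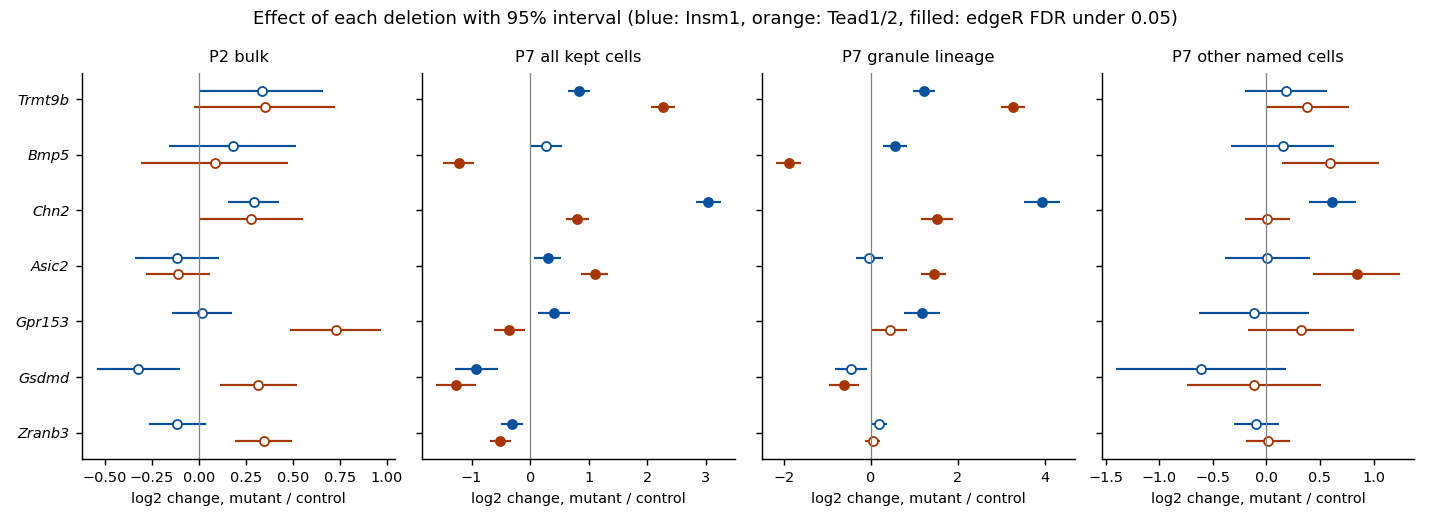
Log2 change of each of the 7 genes after each deletion, with 95% intervals, at P2 in bulk tissue and at P7 in all kept cells, the granule lineage and the other named cells. In all kept cells and the granule lineage at P7, the gap between the lines is wide for Trmt9b, Bmp5, Chn2 and Asic2. The P2 changes of these genes lie side by side (0.29 and 0.28 for Chn2). For Gpr153 the gap is wide at P2 (0.02 and 0.73) and also in all kept cells at P7 (0.41 and -0.36). Trmt9b, Bmp5, Chn2 and Asic2 were treated as chosen at P7, and Gpr153 was chosen at P2.

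Different clusters held the granule lineage cells of mutants and of controls at P7. Clusters 3, 7, 22 and 23, in which controls gave under 10% of the cells, held 52.6%, 75.4% and 79.3% of the granule lineage cells of the Insm1 mutants and 44.4%, 70.6% and 59.8% of those of the Tead1/2 mutants, but at most 1.16% in a control. Clusters 0, 1, 2, 4, 5 and 6 held cells of all groups and are called shared. Controls gave 66.1% (cluster 0) to 93.2% (cluster 4) of their cells, and cluster 4 held 13 cells of Tead1/2 mutants. The mix of shared clusters thus differed between mutants and controls. In Insm1 mutants Insm1 itself read 2.29, 2.26 and 2.65 CPM in the mutant-rich clusters and 54.9, 25.8 and 40.4 CPM in the shared ones, and Tead2 in Tead1/2 mutants read 8.52, 10.4 and 8.63 against 18.3, 20.4 and 18.3 CPM. Levels per cluster and per class in this and the following paragraphs are plain CPM without TMM factors, and since the clusters were built from expression they are a description.

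Chn2 followed this split. In the mutant-rich clusters it stood at 709, 654 and 495 CPM in Insm1 mutants and 177, 179 and 124 CPM in Tead1/2 mutants. In the shared clusters the mutants had 86.4, 189 and 100 CPM and 68.8, 83.7 and 64.0 CPM, above the 24.9 to 25.5 CPM and 28.4 to 32.8 CPM of the controls there. Asic2 was high in the mutant-rich clusters of Tead1/2 mutants, at 99.6, 107 and 108 CPM, against 32.7, 18.9 and 28.3 CPM in their shared clusters and 23.2 and 23.3 CPM in the controls. In Insm1 mutants Asic2 read 21.8, 18.3 and 26.1 CPM in the mutant-rich clusters, close to its level in Insm1 controls (21.5 and 15.8 CPM).

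Bmp5 differed in Tead1/2 mutants in that the shared clusters, not the mutant-rich ones, lay farthest from the controls. It read 2.06, 5.98 and 1.19 CPM in their shared clusters and 32.2, 22.0 and 23.9 CPM in their mutant-rich clusters, both below the 53.7 and 54.9 CPM of Tead1/2 controls. In Insm1 mutants it read 113, 109 and 96.6 CPM in the mutant-rich clusters, above the 48.9 and 62.3 CPM of controls, but 26.2, 61.5 and 43.7 CPM in the shared clusters, so that the higher level of Insm1 mutants lay in the mutant-rich clusters. Trmt9b was above its controls in both kinds of cluster: 51.7, 47.5 and 49.6 CPM in mutant-rich and 35.4, 32.5 and 44.5 CPM in shared clusters of Insm1 mutants, and 80.9, 77.5 and 75.3 CPM and 29.4, 53.8 and 42.5 CPM in those of Tead1/2 mutants. Gpr153 in Insm1 mutants was 48.5, 53.0 and 76.5 CPM in mutant-rich clusters and 24.0, 31.5 and 36.4 CPM in shared ones, and Zranb3 was 69.0 to 89.4 CPM in every mutant in both kinds. The shared clusters of mutants held 198 to 1043 cells per Insm1 library and 553 to 1239 per Tead1/2 library.

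**Figure D4:**
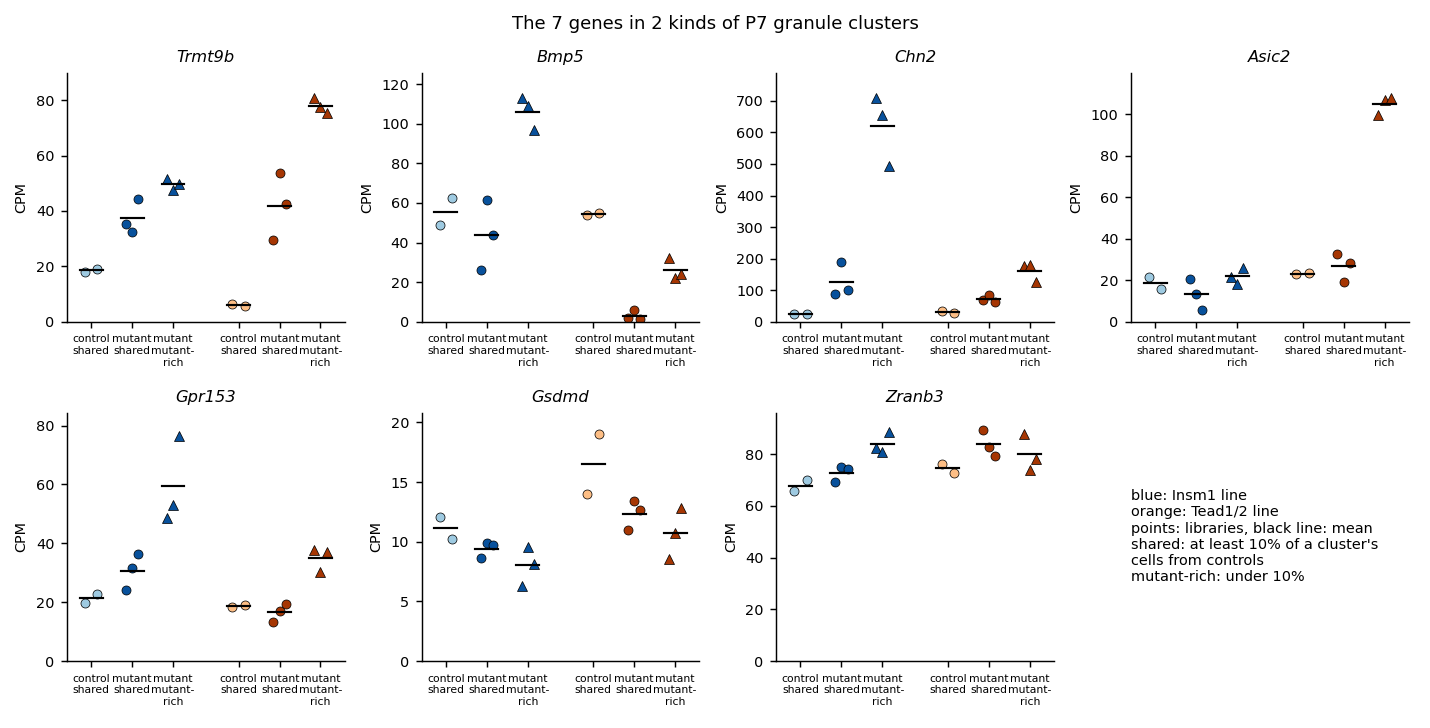
Levels of the genes in granule lineage clusters shared by all groups and in mutant-rich clusters, in plain CPM with 1 point per library and a black line at the mean. Chn2 reaches 709 CPM in mutant-rich clusters of an Insm1 mutant, and Asic2 reaches 108 CPM in mutant-rich clusters of a Tead1/2 mutant.

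Clusters 8 and 20, which met no marker rule for a name and were also mutant-rich, carried the same line-specific levels. Chn2 read 999, 929 and 958 CPM there in Insm1 mutants and 436, 346 and 393 CPM in Tead1/2 mutants. Bmp5 read 141, 110 and 101 CPM against 37.0, 30.01 and 35.3 CPM, and Asic2 21.0, 24.5 and 14.5 CPM against 140, 141 and 128 CPM. No overlap between the lines was seen for any of these 3 genes in these cells. In skeletal muscle clusters, which had too few control cells for a control value, the mean levels of Insm1 and Tead1/2 mutants were 59.7 and 36.2 CPM for Chn2, 6.29 and 3.10 CPM for Bmp5, 10.3 and 12.1 CPM for Asic2 and 28.1 and 27.1 CPM for Trmt9b. For Chn2 and Asic2 these means lie below every library's value in clusters 8 and 20 of the same mutants.

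Split into progenitors and neurons, Chn2 went from 25.4 and 23.6 CPM in Insm1 control progenitors to 242, 386 and 318 CPM in mutant progenitors, and from 32.3 and 35.4 to 700, 842 and 610 CPM in neurons. In the Tead1/2 line, Chn2 went from 39.5 and 27.1 to 80.4, 75.4 and 63.1 CPM in progenitors and from 32.2 and 69.1 to 173, 235 and 155 CPM in neurons. Mutants lay above controls in each case. Asic2 in Tead1/2 mutants was higher in progenitors, at 74.7, 130 and 98.9 CPM against 25.1 and 27.7 CPM, and to a lesser extent in neurons, at 44.5, 28.6 and 38.4 CPM against 21.7 and 25.2 CPM. In Insm1 mutants Asic2 was lower than controls in progenitors, at 14.7, 11.5 and 3.29 CPM against 26.9 and 17.8 CPM, and higher in neurons, at 31.2, 27.7 and 57.7 CPM against 16.2 and 16.9 CPM. The Insm1 granule lineage sum of Asic2 thus joined a class below and a class above its controls.

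Bmp5 in Tead1/2 mutants was below controls in progenitors, at 18.5, 26.4 and 17.8 CPM against 59.2 and 63.4 CPM, and in neurons, at 11.1, 7.53 and 9.46 CPM against 44.6 and 45.5 CPM. In Insm1 mutants it was above controls in progenitors, at 82.3, 109 and 112 CPM against 59.2 and 74.3 CPM, while neurons overlapped (59.5, 76.2 and 38.3 CPM against 38.2 and 49.2 CPM). Trmt9b in Tead1/2 mutant neurons read 62.8, 75.9 and 66.4 CPM against 3.75 and 4.605 CPM in controls and 45.6, 65.8 and 58.7 CPM against 7.85 and 6.36 CPM in progenitors. In Insm1 mutants, Trmt9b neurons had 46.8, 57.7 and 54.2 CPM against 12.8 and 13.0 CPM.

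Gpr153 in controls was higher in progenitors than in neurons, at 28.2 to 39.2 CPM and 1.21 to 2.58 CPM. Mutant neurons had 11.9, 28.2 and 36.6 CPM after Insm1 deletion and 11.6, 15.4 and 16.4 CPM after Tead1/2 deletion, all above the controls. Zranb3 was also higher in progenitors, at 110 to 115 CPM in control progenitors and 13.0 to 14.9 CPM in control neurons, with 107 to 126 CPM in mutant progenitors and 17.2 to 41.9 CPM in mutant neurons. Gsdmd in progenitors was below controls in both mutants, at 9.94, 11.5 and 9.65 CPM against 16.8 and 14.8 CPM for Insm1 and 11.3, 10.4 and 12.9 CPM against 18.1 and 24.3 CPM for Tead1/2. These progenitor and neuron classes include the mutant-rich clusters 3 and 23 (progenitor) and 7 and 22 (neuron).

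Outside the granule lineage, 1 gene passed the threshold for each deletion. The passing genes, Chn2 and Asic2, were treated as chosen at P7 from the same libraries, so these calls are a description. In the sum of the other named cells, skeletal muscle left out, 1 of 7 genes passed an edgeR adjusted p of 0.05 for Insm1 (0.192% of all genes), 1 of 7 for Tead1/2 (6.10%) and 0 of 7 for the difference (0.730%, with 2 of 7 at an unadjusted p under 0.05 against 12.3% of all genes). The gene for Insm1 was Chn2, at 123 and 123 CPM in controls and 174, 181 and 211 CPM in mutants, with a log2 change of 0.61 (SE 0.101) that failed in 8 of 10 fits that left out a library, all but those without Tead1/2 mutant 1 or 2 (edgeR adjusted p 0.0618 to 0.353). Endothelial clusters, which hold Chn2, had 0 cells in either Insm1 control and 31 to 51 cells in Insm1 mutants. Summed endothelial markers over 9 genes stood at 101 to 102 CPM in these controls and 314 to 424 CPM in these mutants. The part of endothelial cells in the Chn2 change was not tested. The gene for Tead1/2 was Asic2, at 196 and 327 CPM in controls and 503, 441 and 459 CPM in mutants (0.84, SE 0.186, edgeR adjusted p = 0.0247). It failed without Tead1/2 control 1 (0.48, adjusted p = 0.126), without Tead1/2 mutant 3 (0.82, adjusted p = 0.0591) and with a term for sex (0.80, adjusted p = 0.0835). Markers of 2 cell types that hold Asic2 moved with it, and those of GABAergic interneurons, which also hold it, moved the other way. Summed oligodendrocyte lineage markers stood at 639 to 664 CPM in Tead1/2 controls and 1555 to 2242 CPM in Tead1/2 mutants over 10 genes, and these cells were 1.69% and 4.41% to 5.05% of all cells, with 841 and 863 CPM of Asic2 in the controls. Summed meningeal fibroblast markers stood at 1260 to 1321 CPM in Tead1/2 controls and 1809 to 3002 CPM in Tead1/2 mutants over 8 genes, and meningeal clusters were 0.876% to 1.44% and 1.85% to 4.99% of cells. Asic2 in meningeal clusters read 303 and 1199 CPM in Tead1/2 controls and 2727, 2053 and 1479 CPM in mutants. Summed GABAergic interneuron markers stood at 1680 to 1987 CPM in Tead1/2 controls and 997 to 1462 CPM in Tead1/2 mutants over 10 genes. Interneurons were 9.84% to 10.2% and 8.11% to 10.9% of cells, and had 152 to 297 CPM of Asic2 in the controls of both lines. The part of any of these cell types in the result was not tested.

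By class, Chn2 in GABAergic interneurons read 169 and 193 CPM in Insm1 controls and 192, 171 and 156 CPM in Insm1 mutants, which overlapped. In the Tead1/2 line the interneuron mutants, at 177, 179 and 176 CPM of Chn2, lay above the controls at 146 and 133 CPM. Endothelial clusters had 942 to 1450 CPM of Chn2 where there were cells to measure, which left out both Insm1 controls and Tead1/2 mutant 1, and astroglia had 0 to 24.1 CPM. Chn2 in oligodendrocyte lineage cells read 156 and 217 CPM in Insm1 controls and 531 and 510 CPM in Tead1/2 controls, so the controls of the lines did not overlap there; over all other named cells the control means were 123 and 256 CPM. Bmp5 outside the granule lineage was found in meningeal fibroblasts, where Insm1 mutants (455, 415 and 412 CPM) lay above their controls (344 and 292 CPM) and the Tead1/2 groups overlapped (417, 315 and 289 against 382 and 411 CPM). Interneurons had at most 2.48 CPM of Bmp5. In the other named cells together, TMM-scaled Bmp5 read 28.8 to 33.8 CPM in Tead1/2 controls. Their mutants read 42.5 to 55.8 CPM, above the controls, unlike in the granule lineage. This change did not pass, and the Insm1 groups overlapped. Asic2 in astroglia stood at 59.3, 84.0 and 86.5 CPM in Tead1/2 mutants against 21.9 and 11.6 CPM in their controls, and at 56.6, 58.1 and 46.0 CPM in Insm1 mutants against 28.3 and 30.9 CPM. Asic2 in oligodendrocyte lineage cells was the reverse for Tead1/2, at 572, 517 and 606 CPM against 841 and 863 CPM. Trmt9b in interneurons was 26.7, 28.6 and 32.3 CPM in Tead1/2 mutants against a mean of 14.4 CPM in their controls, and Gsdmd in microglia overlapped in the Insm1 line and read 27.6, 33.7 and 27.2 CPM in Tead1/2 mutants against 38.0 and 38.1 CPM in their controls.

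**Figure D5:**
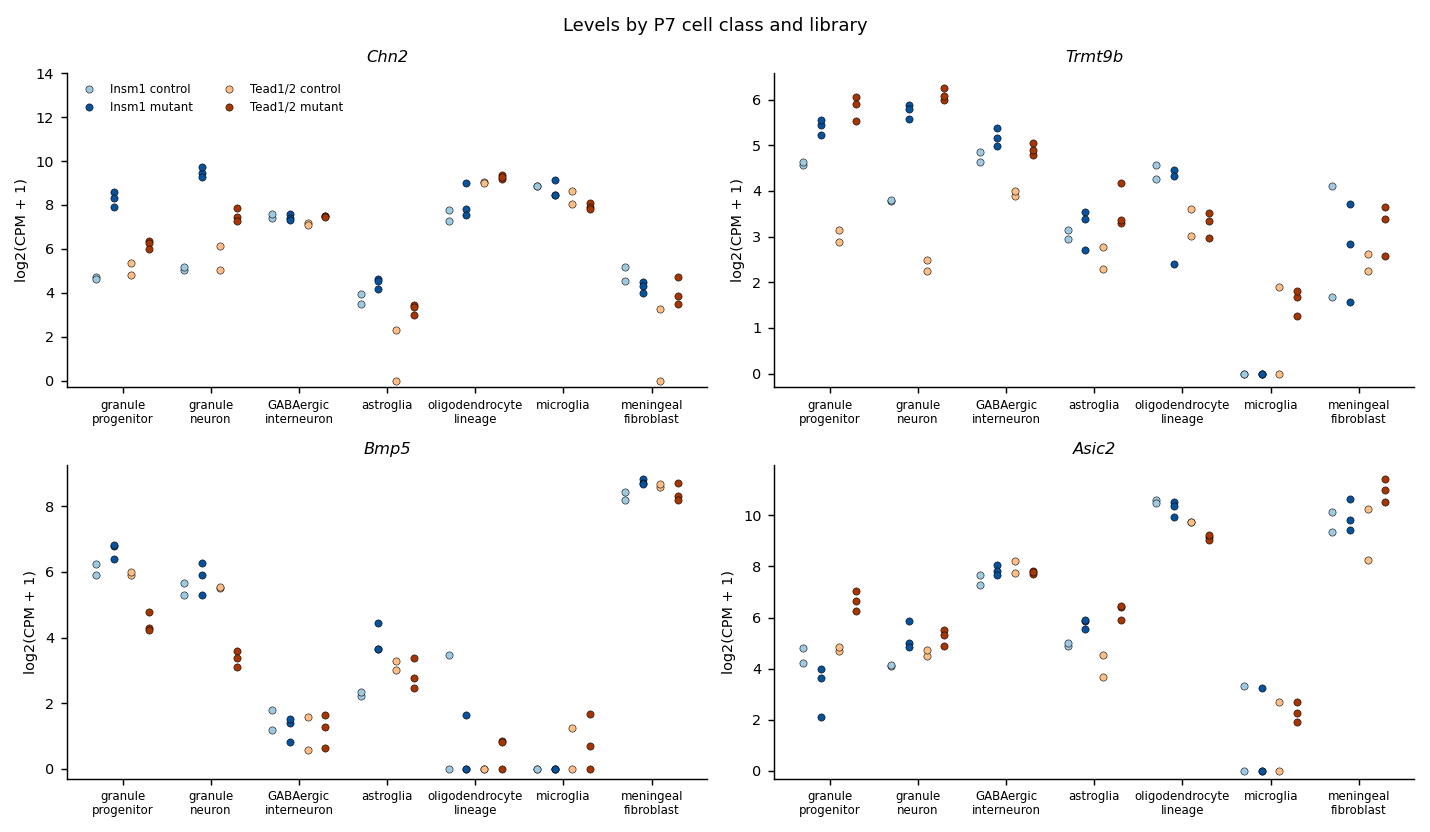
Levels of Chn2, Trmt9b, Bmp5 and Asic2 in 7 cell classes at P7, as log2(CPM + 1) of plain CPM, with 1 point per library that had at least 20 cells of the class. Mutants and controls separate in granule progenitors and neurons for Chn2 and Trmt9b in both lines, while interneuron levels of Chn2 overlap in the Insm1 line.

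Genes of each member's pathway were counted from lists that include the member itself, so a called member counts in its own list. Counts are at P7 in the sum of all kept cells unless stated. At P2 the edgeR test called 0 genes of any list. Of all genes tested in these cells, 16.1% rose and 13.2% fell after Insm1 deletion, 25.0% rose and 20.2% fell after Tead1/2 deletion, and 1.37% were called higher and 2.32% lower for the difference. Of 26 BMP pathway genes tested, 4 rose and 4 fell after Insm1 deletion, 7 rose and 6 fell after Tead1/2 deletion, and the 1 gene called for the difference was Bmp5 itself. The antagonists Fst (log2 change 3.90 and 5.25 for Insm1 and Tead1/2) and Nog (1.85 and 4.21) and the ligand Bmp2 (1.36 and 1.59) rose in both, while the inhibitory Smad7 (-0.48 and -1.02) fell. Chrd, also an antagonist, fell after Tead1/2 deletion (-0.99, edgeR adjusted p = 0.000142) and was not called for Insm1. These called shares, 8 and 13 of 26, lay near those of all genes, and the list median was 0.09 and 0.03 against 0.02 and 0.05 over all genes. Of 4 acid-sensing channel genes tested, 2 rose after each deletion, Asic2 and Asic3 for Insm1 and Asic2 and Asic4 for Tead1/2, where the Insm1 call of Asic2 is the one that 10 of 19 alternatives lost. For the difference, Asic2 and Asic4 (2.65 for Tead1/2) were lower in the difference, the latter at -1.99 (edgeR adjusted p = 0.025).

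Of 11 genes of the chimaerin list, 3 rose and 1 fell for Insm1, 4 rose and 1 fell for Tead1/2, and the 1 called for the difference was Chn2. Chn2 was also among the genes that rose after each deletion. Epha4, a guidance receptor upstream of chimaerins, rose by 0.98 and 1.40, and by 3.39 and 3.70 in the granule lineage. Of 13 replication fork genes 0 rose and 8 fell for Insm1 and 0 rose and 9 fell for Tead1/2, among them the sliding clamp Pcna (-0.75 and -1.01), with list medians of -0.31 and -0.51 against 0.02 and 0.05 over all genes. In the granule lineage 0 of the 13 passed in either direction for either deletion. Zranb3 was 1 of those that fell in all kept cells. Of 11 pyroptosis genes, 2 rose and 2 fell for Insm1 and 4 rose and 3 fell for Tead1/2, with the second gasdermin Gsdme at -0.49 and -0.59 and Ninj1, which ruptures the membrane of dying cells, at 1.44 and 1.48. Of 13 tRNA wobble modification genes, 1 rose and 1 fell for Insm1 and 1 rose and 4 fell for Tead1/2. The gene that rose in each case, and the 1 called for the difference, was Trmt9b itself. Gpr162, the nearest relative of Gpr153, fell by 0.74 after Tead1/2 deletion.

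Genes whose levels ran most alike were found by Pearson's r of log2 CPM after subtracting each line's control mean, given as a description over libraries that share the group differences. Over the 10 P7 all-cell sums, Trmt9b was closest to A330093E20Rik (r = 0.997) and Reep1 (0.995), Bmp5 to Ntrk2 (0.978) and Bap1 (0.976), Chn2 to Dip2b (0.994) and Fam78b (0.992), and Asic2 to Ctbs and Abra (0.983 each). Gpr153 was closest to Tmem74bos (0.961) and Gm10638 (0.957), Gsdmd to Tmem151b (0.994) and Gdf11 (0.993), and Zranb3 to Brip1 (0.999) and Pola1 (0.998). Over the 15 P2 libraries the closest genes were Pdcd4 (0.94) and Prom1 (0.91) for Gpr153, Limd1 (0.92) and Ipp (0.91) for Gsdmd and Cep63 (0.96) and Eif4ebp1 (0.93) for Zranb3. Chn2 was closest at P2 to Iffo1 (0.93) and Rbm24 (0.92), Asic2 to Zfp746 (0.96) and C77080 (0.94), Trmt9b to Gm35021 (0.89) and Mxd4 (0.86) and Bmp5 to Dnajc22 (0.80) and Gm42303 (0.78). No gene was among the closest pair of a member at both ages.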

How the data were processed

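Bulk RNA-seq of P2 cerebella was deposited by the authors as gene-level expected counts from RSEM, without scaling; these estimated counts were rounded to whole numbers here, and 92 spike-in rows were left out. Single-cell data were deposited as whole-number counts of unique molecules (UMIs) per gene and barcode, with the library, its genotype and its dissection named in the authors' cell metadata. The submitters' processing notes name GRCm38.p6 and mm10, Trim Galore 0.6.3, STAR 2.7.9a, RSEM 1.3.3 and Seurat 4.4.0 without tying them to an assay, and the single-cell gene tables name GRCm39. The 7 genes and all gene lists were chosen with earlier results of these data known.

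At P2, edgeR 4.0.16 (R 4.3.3; TMM factors, filterByExpr, quasi-likelihood test, Benjamini-Hochberg adjustment over all genes tested) was fitted on the libraries of each line for its deletion and on all 15 libraries for the difference, (Insm1 mutant minus control) minus (Tead1/2 mutant minus control). At P7, barcodes with at least 1000 UMIs, 500 genes and under 15% mitochondrial counts were kept (79838). Doublets were removed at 1 common score threshold, since the caller's own threshold failed in 3 libraries. This took out 43.7% and left 44912 cells. The share removed ran from 30.1% in Tead1/2 mutant 1 to 53.2% in Insm1 control 2. Library medians were 15970 to 26400 UMIs in removed barcodes and 4409 to 7733 in kept cells. Other doublet settings were applied to all kept cells only, not to the granule lineage. Cells were clustered with scanpy 1.11.5 (2000 variable genes, 30 components, Leiden resolution 1.0, 26 clusters) and named from marker lists; 4742 cells stayed unnamed. For all kept cells, the granule lineage and the other named cells, UMI counts were added up by library, and each set of 10 sums was tested with edgeR, since cells are not replicates. Standard errors are the log2 change over the root of the F statistic. The fits were tested on simulated data in which genes were changed in Insm1 mutants only. For the difference, the P7 fit of all kept cells recovered 50.5% of 2-fold and 84.4% of 4-fold changes. At P2 these shares were 67.7% and 90.7%. No 2 P2 libraries of the same group, the only pairs compared, were copies of each other, and 0 barcodes were shared between P7 libraries.

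The text names the 7 genes, the deleted genes, some of the called genes of the pathway lists and the 2 genes most like each member. Alternatives were DESeq2 1.42.0, no filter on low counts, upper-quartile scaling, the replicate number as a block, a term for sex, 1 fit of all P2 libraries, other doublet, depth and clustering settings and leaving out each library. The ATAC-seq and CUT&RUN samples were not analysed here.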

Additional observations from a re-analysis of the deposited data

Results flagged for a closer look

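A difference between the deletions past an edgeR adjusted p of 0.05 was found in 9 cases, all at P7. In all kept cells these were Trmt9b (log2 difference, Insm1 change minus Tead1/2 change, -1.43), Bmp5 (1.49), Chn2 (2.23), Asic2 (-0.81) and Gpr153 (0.76). The Asic2 call in all kept cells was lost in 5 of 19 alternatives (adjusted p up to 0.618), with a value of -0.24 when only the highest 5% of doublet scores were removed, and that of Gpr153 in 7 of 19. In the granule lineage they were Trmt9b (-2.04), Bmp5 (2.44), Chn2 (2.42) and Asic2 (-1.48). For Trmt9b, Bmp5, Chn2 and Asic2 these values are the ones on which the genes were taken to have been chosen. For Gpr153, chosen at P2 in other animals, the sign was opposite to the -0.72 measured there in bulk tissue. Insm1 mutants stood at 22.2 to 29.9 CPM and Tead1/2 mutants at 11.8 to 13.6 CPM in all kept cells at P7. Age, assay and cell composition differed between the experiments, so nothing is drawn from the signs. No library stood far from the others of its group for any of the 7 genes in the 21 groups of 4 libraries that could be examined.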

How the results depend on the processing

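Each value was recomputed under the alternatives; 1251 of 1400 values of single genes kept direction and side of the threshold, 54 lost and 29 gained a call, and 66 changed sign. Replicate numbers did not pair the P2 samples (correlation of same-numbered libraries -0.13 to 0.23), so the replicate block shares a number only.

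Signs turned mainly where the change was near 0. At P2 the difference for Chn2 became -0.028 with no filter, -0.091 with the replicate block and -0.041 with a sex term; that for Trmt9b became 0.015 with upper-quartile scaling; that for Asic2 became 0.024 with upper-quartile scaling, 0.033 with the replicate block and 0.0018 with a sex term. Gpr153 for Insm1 at P2 became -0.0040 with no filter, and Bmp5 for Tead1/2 at P2 became -0.041 with the replicate block. The Gsdmd difference in the granule lineage became -0.027 with a sex term. In other named cells, Asic2 for Insm1 became -0.021 with upper-quartile scaling and -0.015 at Leiden resolution 0.5; Chn2 for Tead1/2 became -0.020 with DESeq2, -0.031 with upper-quartile scaling and -0.015 at resolution 0.5; Zranb3 for Tead1/2 became -0.015, -0.021 and -0.019 with DESeq2, upper-quartile scaling and a sex term, and Gsdmd for Tead1/2 became 0.038 with a sex term.

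Counts of called genes moved more. For the P2 difference (0 genes) DESeq2 called 17, no filter 11 and the replicate block 1. For Insm1 at P2 (135) these were 312, 212 and 64, with 88 under a sex term, and for Tead1/2 at P2 (0) they were 960, 1287 and 236, with 3 under a sex term and 4 in 1 fit of all libraries. For the P7 difference, all kept cells (721) gave 1168 with DESeq2, 1997 with no filter and 385 with a sex term, the granule lineage (125) gave 242, 595 and 54, and other named cells (114) gave 369, 952 and 0. Other named cells gave 254, 763 and 7 for Insm1 (30), and 15 with dissection as the replicate block; for Tead1/2 (953) they gave 2123 with no filter and 297 with a sex term.

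With 1 library left out, counts ranged from 0 to 8 for the P2 difference (8 without Tead1/2 control 2), 64 to 132 for Insm1 at P2 and 0 to 646 for Tead1/2 at P2 (646 without Tead1/2 mutant 4). At P7, where a lone control is assumed to vary like the other groups, they ranged from 261 to 1090, 3701 to 6261 and 6315 to 9113 in all kept cells (difference, Insm1, Tead1/2), 38 to 212, 1900 to 3660 and 1657 to 3312 in the granule lineage, and 0 to 430, 0 to 303 and 23 to 1653 in other named cells. Log2 changes that took both signs with 1 library left out ran, for the P2 difference, from -0.066 to 0.067 (Asic2), -0.044 to 0.228 (Bmp5), -0.087 to 0.099 (Chn2) and -0.145 to 0.118 (Trmt9b); at P2 from -0.023 to 0.070 (Gpr153, Insm1) and -0.058 to 0.188 (Bmp5, Tead1/2); in the granule lineage from -0.189 to 0.137 (Asic2, Insm1), -0.041 to 0.086 (Zranb3, Tead1/2) and -0.078 to 0.354 (Gsdmd, difference); and in other named cells from -0.097 to 0.142 (Asic2), -0.036 to 0.363 (Bmp5), -0.328 to 0.198 (Gpr153) and -1.05 to 0.234 (Gsdmd) for Insm1, -0.062 to 0.020 (Chn2) and -0.038 to 0.019 (Zranb3) for Tead1/2 and -0.936 to 0.381 (Gsdmd, difference). The cause of these shifts was not tested.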

Other observations

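The controls of the lines were not interchangeable for every gene. Tead2 in controls averaged 86.5 CPM in the Insm1 line and 23.8 CPM in the Tead1/2 line at P2, and 69.2 and 33.6 CPM in the P7 granule lineage, although neither control carried Cre. Among the 7 genes Trmt9b had the widest ratio of control means in the P7 granule lineage (3.14), and Bmp5 controls averaged 58.4 and 56.6 CPM there.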
